A study of Mus musculus with 16 samples.

Results

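The transcriptomes of CD4 T cells cultured for 1 day under iTreg conditions were compared with those of CD4 T cells cultured for the same time under Th1 conditions. The comparison rests on 4 arrays of the 16 in the series, chosen by their culture and time labels: 2 of day 1 iTreg culture and 2 of day 1 Th1 culture. In each culture 1 array held wild type (WT) cells and 1 held Erk2-deficient cells, all of strain C57/BL6. All 4 arrays lay on the same chip, each at its own position, so position on the chip cannot be told apart from culture or genotype. The series as a whole asks how Erk2 takes part in Th1 and iTreg differentiation. Its other arrays, used here for the error estimate and for context, are of both genotypes at day 0, after 3 hr of Th0 or iTreg culture, after 1 day of Th0 culture, and of day 1 Th0 cells exposed to TGF, transforming growth factor beta, during 1 hr or 3 hr. The sources used here do not give the allele that removed Erk2, the age of the mice, the number of animals behind an array or the agents in the media. Nothing says that the arrays came from separate mice, so the p-values cover only how far these particular arrays vary, which may be technical. With 1 array for each culture and genotype, the spread in the main fit is taken from how unevenly the genotypes differ across the 8 cultures.

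Naive CD4 T cells take on different helper fates according to the cytokines present when their antigen receptor is engaged. Interleukin 12 and interferon-gamma, acting through STAT4 and the T-box factor T-bet (gene Tbx21), drive the Th1 fate, whose signature product is interferon-gamma (Ifng). TGF-beta together with interleukin 2, acting through Smad proteins and STAT5, induces the forkhead factor Foxp3 in peripheral CD4 T cells, which then acquire suppressive function and are called induced regulatory T (iTreg) cells.

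All 8 CD4 T cell markers with a probe (Cd3d, Cd3e, Cd3g and Cd4 among them) were above background on all 4 arrays. Of 7 B cell markers with a probe, Cd79a, Ms4a1, Blk, Pax5 and Cd22 were above background on none of them, Cd79b on 1 array of each culture and Ebf1 on all 4. Of the myeloid markers Itgam, Cd14, Adgre1 and Itgax were never above background, while Lyz1 and S100a8 were on all 4 arrays. Of the CD8 and NK cell markers Cd8a, Ncr1, Klrk1 and Klra1 were never above it, while Cd8b1 and Klrd1 were on all 4. The summed linear intensity of the 9 myeloid markers with a probe was 737 and 779 in Th1 culture and 930 and 1142 in iTreg culture. That of the 7 CD8 and NK cell markers with a probe was 1459 and 1345 against 927 and 1127, with Cd8b1 lower in iTreg culture. Both sums include the markers never above background. The part of these shifts in the results was not tested. Each array had 12172 to 12636 of its 25697 probes above background, with a median raw intensity between 62.6 and 71.1. On the first principal component of all 16 arrays, which held 71.7% of the variance, the Erk2-deficient day 1 iTreg array lay at 17.1 and the other day 1 arrays between 30.0 and 35.1. It therefore stands apart from the rest, and counts without it are given beside the results. Fewer probes were called in all without it, so those counts cannot be read against the shares of the full fit.

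Levels below are log2 normalized intensities, 1 array a value, with the WT array always given first and the Erk2-deficient array second. Rises and falls below compare the 2 cultures at day 1 and are not changes over time. A difference is the iTreg level minus the Th1 level, averaged over the genotypes. It was called when the adjusted p (limma, Benjamini-Hochberg over all probes tested) was under 0.05. At day 1, 691 of 14501 probes (4.77%) were higher in iTreg culture and 548 (3.78%) were lower, 1239 (8.54%) in all. Of these, 122 (0.841%) were at least 2-fold higher and 45 (0.31%) at least 2-fold lower. Without the Erk2-deficient iTreg array 355 probes were higher and 247 lower. Leaving out another of the 4 arrays gave 503 calls (Erk2-deficient Th1), 537 (WT Th1) or 2294 (WT iTreg). Without normalization between arrays the same number of calls split into 431 higher and 808 lower. In these bulk samples, fewer cells that make a transcript and less of it per cell cannot be told apart.

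Foxp3, which defines regulatory T cells, and Nt5e (CD73), an ecto-enzyme that makes adenosine from AMP, were among the 12 largest rises in iTreg culture, and Ifng led the falls. Emp1, a membrane protein of the PMP22 family, stood at 6.79 and 7.61 in Th1 culture and at 10.50 and 11.35 in iTreg culture. The groups were far apart, and Emp1 was 13.2-fold higher in iTreg culture (log2 difference 3.72, SE 0.23, adjusted p = 5.23e-08). Ctsw, a cysteine protease known from cytotoxic lymphocytes, rose from 8.07 and 8.38 to 11.42 and 12.17 (log2 difference 3.57, SE 0.156, adjusted p = 1.47e-09). Aqp3, a channel for water and glycerol, rose from 6.43 and 6.57 to 9.88 and 10.19 (log2 difference 3.54, SE 0.159, adjusted p = 1.47e-09). For Ctsw and Aqp3 the 2 arrays of a culture lay closer together than the cultures did, as they did for Emp1. Ifng stood at 11.45 and 11.47 in Th1 culture and at 8.14 and 7.89 in iTreg culture, 10.9-fold lower in the latter (log2 difference −3.45, SE 0.232, adjusted p = 1.47e-07). Ccl3, a chemokine that attracts monocytes and T cells, stood at 10.53 and 10.37 in Th1 culture and at 8.61 and 7.78 in iTreg culture (log2 difference −2.25, SE 0.261, adjusted p = 4.01e-05), with no overlap of the groups. Here and below, genes named for a large difference were picked on these same arrays, so a lack of overlap follows largely from the choice.

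**Figure D1:**
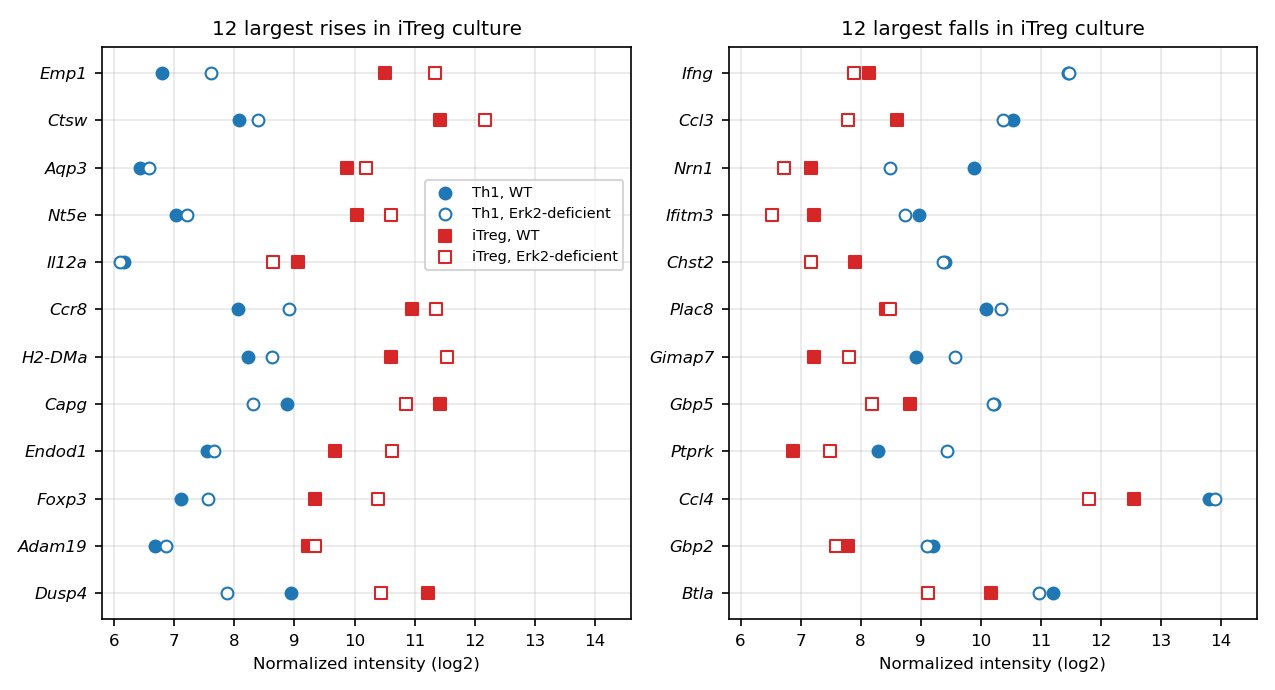
Log2 normalized intensity (horizontal axis) of the 12 genes with the largest rises and the 12 with the largest falls in iTreg culture, 1 point for each of the 4 day 1 arrays: blue circles are Th1 culture, red squares iTreg culture, filled symbols WT and open symbols Erk2-deficient cells. In every row both iTreg arrays lie on the same side of both Th1 arrays, from Emp1 (log2 difference 3.72) to Dusp4 (2.42) among the rises and from Ifng (−3.45) to Btla (−1.45) among the falls. The genes were picked on these 4 arrays for large differences of the same sign in both genotypes, so this separation follows largely from the choice.

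The regions just upstream of a listed start of Emp1, Foxp3, Ifng, Ccl3 and Il12rb2 (the signalling chain of the interleukin 12 receptor) are shown because their transcripts mark the contrast between the cultures. They are the 250 bases before a listed RefSeq start on GRCm38.p6, written 5′ to 3′ on the gene's strand. For Emp1 and Foxp3 the more upstream of 2 listed starts was taken. Capitals mark matches, on either strand, to GTCTAGAC or CAGACA (Smad-binding elements), TTCNNNGAA (STAT), AGGTGTGA (T-box) and GGAAAA (NFAT core).
Emp1: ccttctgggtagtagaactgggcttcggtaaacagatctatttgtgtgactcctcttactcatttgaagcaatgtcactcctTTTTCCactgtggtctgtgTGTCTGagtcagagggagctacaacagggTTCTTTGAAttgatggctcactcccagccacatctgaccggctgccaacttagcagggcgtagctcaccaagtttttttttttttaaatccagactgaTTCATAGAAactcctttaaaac
Foxp3: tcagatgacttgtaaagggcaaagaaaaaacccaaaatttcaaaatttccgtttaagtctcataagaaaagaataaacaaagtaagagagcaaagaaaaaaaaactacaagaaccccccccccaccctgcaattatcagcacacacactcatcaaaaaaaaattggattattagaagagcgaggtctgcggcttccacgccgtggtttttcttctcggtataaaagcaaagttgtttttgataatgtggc
Ifng: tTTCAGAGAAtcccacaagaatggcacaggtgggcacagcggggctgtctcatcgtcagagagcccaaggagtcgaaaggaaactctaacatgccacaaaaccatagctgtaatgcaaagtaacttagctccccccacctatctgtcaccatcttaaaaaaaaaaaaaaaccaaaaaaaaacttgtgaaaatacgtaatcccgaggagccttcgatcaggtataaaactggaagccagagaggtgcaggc
Ccl3: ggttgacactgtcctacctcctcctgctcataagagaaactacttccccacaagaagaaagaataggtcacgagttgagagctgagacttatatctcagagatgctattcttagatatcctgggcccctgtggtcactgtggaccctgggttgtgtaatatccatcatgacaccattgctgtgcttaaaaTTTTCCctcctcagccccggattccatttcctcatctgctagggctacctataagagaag
Il12rb2: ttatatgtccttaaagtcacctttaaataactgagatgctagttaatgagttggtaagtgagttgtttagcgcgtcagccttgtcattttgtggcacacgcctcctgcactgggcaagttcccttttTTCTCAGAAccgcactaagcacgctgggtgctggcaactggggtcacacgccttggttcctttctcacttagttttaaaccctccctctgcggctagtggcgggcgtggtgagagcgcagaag
The Emp1 region is chr6:135362681-135362930, plus strand, and the Foxp3 region chrX:7579426-7579675, plus strand. The Ifng region is chr10:118440796-118441045, plus strand, the Ccl3 region chr11:83649379-83649628, minus strand, and the Il12rb2 region chr6:67376189-67376438, minus strand. The RefSeq span of the Emp1 gene begins at 135362550, so the Emp1 region lies within the gene span. That of Il12rb2 ends at 67376293, so part of the Il12rb2 region lies within it. Emp1 held 2 STAT matches, 1 CAGACA and 1 GGAAAA, Ifng and Il12rb2 1 STAT match each, and Ccl3 1 GGAAAA. The Foxp3 region held none of the 5 motifs in this window, nor did that of Tbx21. For scale, TTCNNNGAA occurred in 7.02% of 32851 such regions, CAGACA in 17.1%, GGAAAA in 20.4%, AGGTGTGA in 1.12% and GTCTAGAC in 0.167%. These matches are a description of letters, and binding was not measured. Ctsw is named without a sequence.

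The rest of the 12 largest rises follow. Il12a, the p35 chain of interleukins 12 and 35, was never above background in Th1 culture (6.16 and 6.09) and stood at 9.05 and 8.64 in iTreg culture. It was at least 5.84-fold higher, a bound taken against the lowest signal above background (adjusted p = 4.22e-07). Ccr8, a chemokine receptor of Treg and Th2 cells, rose from 8.07 and 8.91 to 10.95 and 11.36 (log2 difference 2.67, SE 0.165, adjusted p = 5.23e-08). H2-DMa, which loads peptides onto MHC class II, rose by 2.65 on the log2 scale, Capg, an actin-capping protein, by 2.55, and Endod1 by 2.54. Adam19, a membrane metalloprotease, rose by 2.51, and Dusp4, a phosphatase that inactivates MAP kinases, by 2.42. Each of these 12 rises stayed past the threshold in all 20 alternative settings.

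Among the falls below Ifng and Ccl3 were Ifitm3 and Gbp5, both known to be induced by interferons. Ifitm3, a membrane protein that restricts viral entry, stood at 8.97 and 8.73 in Th1 culture and at 7.22 and 6.53 in iTreg culture (log2 difference −1.98, SE 0.127, adjusted p = 7.90e-08). Gbp5, an interferon-inducible GTPase, stood at 10.22 and 10.21 and then at 8.83 and 8.19 (log2 difference −1.71, SE 0.215, adjusted p = 8.89e-05). In both, the Th1 arrays were nearly alike and the iTreg arrays clearly lower. Nrn1 (neuritin) differed by −2.24, Chst2, a sulfotransferase, by −1.86, Plac8 by −1.76, Gimap7, a GTPase of lymphocytes, by −1.73, and Btla, an inhibitory receptor, by −1.45. The phosphatase Ptprk (−1.69), the chemokine Ccl4 (−1.67) and the Gbp2 probe with the largest fall (−1.46) also passed, but each lost the call in the WT pair alone at least, with adjusted p up to 0.12, 0.0827 and 0.0576 over the alternatives.

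Ifng, Ccl3 and both chains of the interleukin 12 receptor were among the Th1 genes that were lower in iTreg culture. Of 17 Th1 program genes measured, 8 were lower in iTreg culture and 1 was higher, against 408 (4.16%) and 496 (5.06%) of all 9800 genes, taking the brightest probe of each. Their median difference was −0.70, against −0.02 over all genes, and without the Erk2-deficient iTreg array 10 were lower and 0 higher, against 186 and 263 of all genes. All 22 gene lists were drawn up with earlier results of these data known, so their counts are not independent evidence of direction. Il12rb2 stood at 7.34 and 7.51 in Th1 culture and at 6.35 and 6.40 in iTreg culture (log2 difference −1.05, SE 0.121, adjusted p = 3.91e-05), and the groups did not overlap. Il12rb1, the shared chain of the receptors for interleukins 12 and 23, fell from 9.13 and 8.69 to 8.41 and 7.0 (log2 difference −1.21, SE 0.233, adjusted p = 0.00349). Stat4, which transmits the interleukin 12 signal, differed by −0.73 (adjusted p = 0.0273). The T-box factor Eomes (−1.03), the transcription factor Bhlhe40 (−1.36) and Ccl4 made up the rest of the 8. Nkg7, a granule protein, was the member that was higher (0.97, adjusted p = 0.0142).

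Tbx21 itself did not pass. It stood at 10.04 and 9.91 in Th1 culture and at 9.87 and 8.69 in iTreg culture (log2 difference −0.70, SE 0.227, adjusted p = 0.0708). The WT iTreg array lay just under the Th1 arrays and the Erk2-deficient one well below them, and the difference passed the threshold in 7 of 20 alternative settings. The Th1 genes Cxcr3 (0.35), Ccl5 (−0.15), Il18rap (−0.18), Il18r1 (−0.23) and Fasl (−0.35) were not called.

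Foxp3 rose together with other genes of the Treg list. Of 20 measured, 10 were higher and 2 lower, against 5.06% and 4.16% of all genes. The median was 0.62, and without the Erk2-deficient iTreg array 9 were higher and 1 lower. Foxp3 stood at 7.11 and 7.56 in Th1 culture and at 9.34 and 10.39 in iTreg culture, 5.8-fold higher (log2 difference 2.54, SE 0.281, adjusted p = 2.56e-05), and its 3 probes differed by 1.45 to 2.54. Nt5e rose from 7.02 and 7.21 to 10.04 and 10.61 (log2 difference 3.21, SE 0.144, adjusted p = 1.47e-09). Both genes were higher in each genotype, and the 2 cultures did not overlap. Ikzf4 (Eos), a zinc finger partner of Foxp3, rose from 6.67 and 6.90 to 8.32 and 9.01 (log2 difference 1.88, SE 0.138, adjusted p = 3.49e-07). Itgae (CD103), the integrin chain that binds E-cadherin, rose from 6.42 and 6.32 to 7.62 and 7.73 (log2 difference 1.31, SE 0.101, adjusted p = 5.92e-07), and 3 of its 4 probes were called. Gpr83 (1.43), the semaphorin receptor Nrp1 (1.21), the folate receptor 4 gene Izumo1r (0.84), Tnfrsf9 (4-1BB, 0.84), Capg and Swap70 (0.37) completed the 10.

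Other familiar Treg markers did not differ past the threshold. Il2ra (CD25) stood at 10.20 and 10.32 in Th1 culture and at 10.55 and 10.76 in iTreg culture (adjusted p = 0.444). Ctla4 differed by 0.06, Tnfrsf18 (GITR) by 0.27, Tnfrsf4 (OX40) by 0.10, Ikzf2 (Helios) by 0.39 and Il10 by −0.37. The costimulator Icos (log2 difference −1.04, SE 0.165, adjusted p = 0.000778) and the inhibitory receptor Lag3 (−0.73) were lower in iTreg culture.

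**Figure D2:**
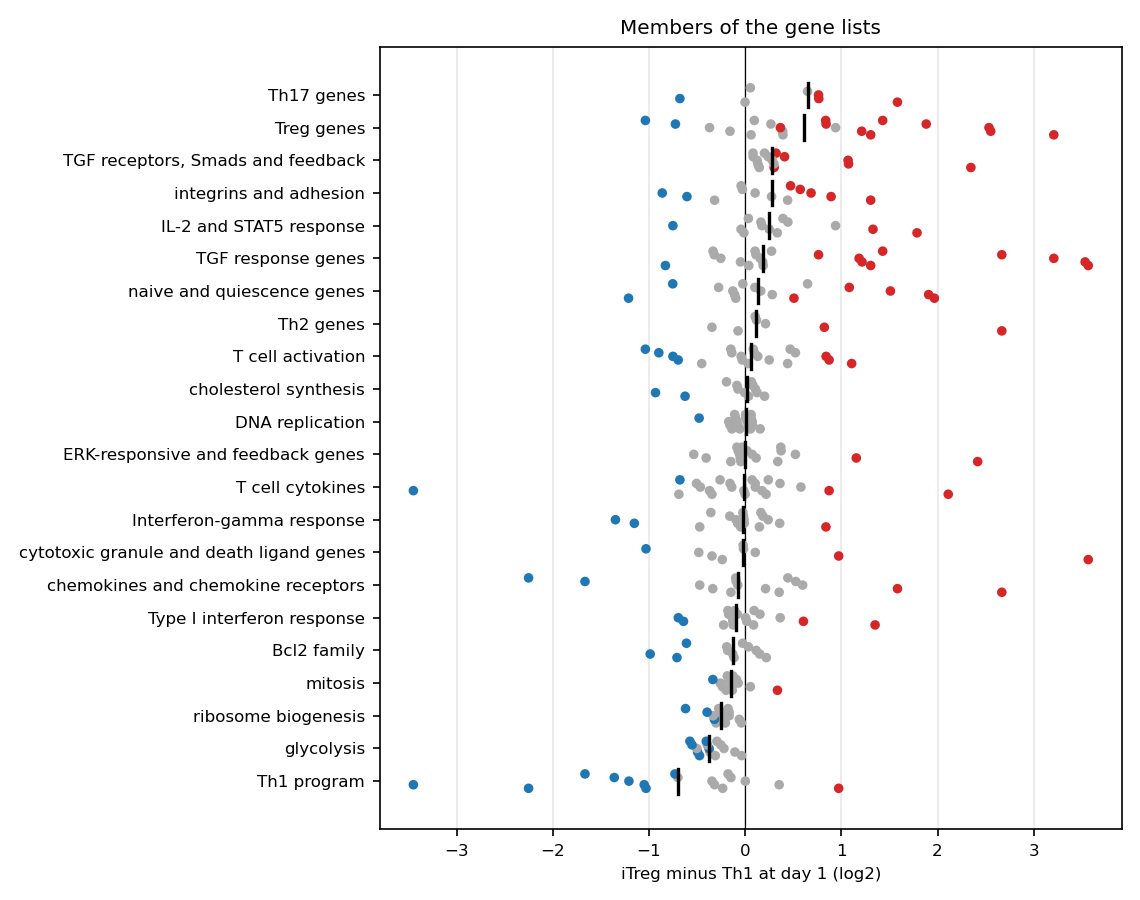
Difference between iTreg and Th1 culture at day 1 (log2, horizontal axis) for the members of 22 gene lists, 1 point a gene, with red for genes higher and blue for genes lower in iTreg culture past the threshold, grey for genes not past it, and a black bar at the list median. The Th1 program list has the lowest median (−0.70), and the Th17 and Treg lists have the highest (0.65 and 0.62).

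The receptors and inhibitors of TGF-beta signalling were next examined. Of 15 measured TGF receptor, Smad and feedback genes, 6 were higher and 0 lower, against 5.06% and 4.16% of all genes. The median was 0.28, and without the Erk2-deficient iTreg array 4 were higher and 0 lower. Tgfbr1, the type I receptor kinase, stood at 9.80 and 9.92 in Th1 culture and at 12.28 and 12.13 in iTreg culture, 5.09-fold higher (log2 difference 2.35, SE 0.133, adjusted p = 2.05e-08), and its 3 probes differed by 0.52 to 2.35. Tgfbr2, the type II receptor that binds the ligand, rose from 10.23 and 10.31 to 11.03 and 11.67 (log2 difference 1.07, SE 0.129, adjusted p = 5.66e-05), and its second probe was not called (0.37). At day 0 Tgfbr2 stood at 12.840 and 12.855, above both cultures. Skil (SnoN), a corepressor of Smads, rose from 9.46 and 9.38 to 10.48 and 10.50 (log2 difference 1.07, SE 0.14, adjusted p = 0.000137). All 3 were higher in each genotype with no overlap of the cultures. The inhibitory Smad6 (not above background in Th1 culture, at least 1.12-fold higher), the ubiquitin ligase Smurf1 (0.32) and the shared Smad4 (0.30) differed less, and their calls were lost in 3 of 19, 8 of 20 and 9 of 20 alternatives. The ligand Tgfb1 differed by 0.24, Smad2 by 0.12, Smad3 by 0.20 and Pmepa1 by 0.08, none past the threshold, and the inhibitory Smad7 had no probe that was kept.

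Of 21 TGF response genes 9 were higher and 1 lower, against 5.06% and 4.16% of all genes, with a median of 0.19 (8 and 2 without the Erk2-deficient iTreg array). This list, like the others, was drawn up with earlier results of these arrays known, so its count is not independent evidence of its direction. Aqp3, Ctsw, Nt5e, Ccr8, Gpr83, Itgae, Rgs16 (1.22), a regulator of G protein signalling, Id1, an inhibitor of basic helix-loop-helix factors, and Rora were the 9. Id1 stood at 6.50 and 6.40 in Th1 culture and at 7.93 and 7.35 in iTreg culture (log2 difference 1.18, SE 0.134, adjusted p = 3.08e-05). Its relative Id3 went the other way, from 8.73 and 8.50 to 7.66 and 7.91 (log2 difference −0.83, SE 0.112, adjusted p = 0.00019). Tgfbi (0.19), Cdkn1a (−0.33), Cdkn2b (−0.05), Itgav (0.27) and Itgb8 (0.10) were not called.

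Gbp2 and Gbp3 were the interferon-gamma response genes that were lower in iTreg culture. Of 18 interferon-gamma response genes 2 were lower and 1 higher, against 4.16% and 5.06% of all genes, with a median of −0.02 (2 and 0 without the Erk2-deficient iTreg array). Gbp2 on its brightest probe stood at 13.49 and 13.21 in Th1 culture and at 12.19 and 11.81 in iTreg culture (log2 difference −1.35, adjusted p = 0.000168). Its neighbour Gbp3, another interferon-inducible GTPase, stood at 9.49 and 9.34 and then at 8.31 and 8.21 (log2 difference −1.15, SE 0.182, adjusted p = 0.000757), and for both genes the cultures were apart. Irf8, a transcription factor, was higher (0.84), a call lost in 11 of 20 alternatives, and Irf1, Socs1, Tap1, Psmb9, Irgm1 and Igtp lay between −0.05 and 0.36 without a call. Of 18 type I interferon response genes, Ifit3 (1.35) and Irf9 (0.61) were higher, and Isg15 (−0.64) and Isg20 (−0.70) lower. Without the Erk2-deficient iTreg array 0 were higher and 1 was lower.

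Some genes of the Th2 and Th17 fates were called, to be read against 5.06% of all genes higher and 4.16% lower. Gata3, the lineage factor of Th2 cells, stood at 8.16 and 9.17 in Th1 culture and at 8.98 and 9.99 in iTreg culture (log2 difference 0.82, SE 0.18, adjusted p = 0.00861). The cultures overlapped, since the WT iTreg array lay below the Erk2-deficient Th1 array, while the difference within each genotype was nearly equal (0.83 and 0.82). Gata3 was higher still in day 1 Th0 culture, on the other chip, at 9.73 and 10.61. Its call was lost in 4 of 20 alternatives, among them the WT pair alone (adjusted p up to 0.322). Of 7 Th2 genes 2 were higher, Gata3 and Ccr8 (1 without the Erk2-deficient iTreg array), and Il4 (−0.35) and Il13 (0.10) were not called. Of 7 Th17 genes 3 were higher and 1 lower, with or without the Erk2-deficient iTreg array. Ccr6, a chemokine receptor of Th17 and Treg cells, rose from 7.28 and 8.05 to 9.44 and 9.06 (log2 difference 1.58, SE 0.264, adjusted p = 0.00113). Stat3, which transmits interleukin 6 signals, was higher by 0.77 and the nuclear receptor Rora by 0.76, Il21 was lower by at least 1.34-fold, and Il17a differed by less than 0.01.

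Stat5a and Cish were higher in iTreg culture among the genes of interleukin 2 and STAT5 signalling. Stat5a, a transducer of interleukin 2 signals that binds at the Foxp3 locus, stood at 9.16 and 9.10 in Th1 culture and at 10.95 and 10.89 in iTreg culture (log2 difference 1.79, SE 0.11, adjusted p = 5.23e-08). Cish, a STAT5-induced inhibitor of cytokine signalling, rose from 11.78 and 12.11 to 13.07 and 13.48 (log2 difference 1.33, SE 0.186, adjusted p = 0.000253). The arrays of each culture lay close together for both. The kinase Pim2 was lower (−0.75), so that 2 of 13 genes of the list were higher and 1 lower, with a median of 0.25 (3 and 1 without the Erk2-deficient iTreg array). Among all genes 5.06% were higher and 4.16% lower, and counts this small say little about the list.

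Activation genes were called in both directions and 2 ERK-responsive genes as higher, to be read against 5.06% of all genes higher and 4.16% lower. Of 20 T cell activation genes 3 were higher and 4 lower: Cd83 (1.11), the cytokine gene Lta (0.87) and Tnfrsf9 were higher, and Icos, the AP-1 factor Batf (−0.90), the early marker Cd69 (−0.75) and Cd40lg (−0.70) lower. The median was 0.06, and without the Erk2-deficient iTreg array 1 was higher and 3 were lower. Myc (−0.15), Irf4 (0.03) and Tnf (−0.14) were not called. Of 18 ERK-responsive and feedback genes 2 were higher and 0 lower (2 and 1 without the Erk2-deficient iTreg array). Dusp4 rose from 8.94 and 7.88 to 11.22 and 10.43 (log2 difference 2.42, SE 0.236, adjusted p = 6.89e-06), and Phlda1 from 8.53 and 8.58 to 9.89 and 9.53 (log2 difference 1.16, SE 0.188, adjusted p = 0.00093). Dusp4 was higher in both genotypes, and the Erk2-deficient array was the lower in each culture. Dusp6, the ERK phosphatase, stood at 10.93 and 9.78 in Th1 culture and at 10.39 and 9.24 in iTreg culture. It was lower by a like amount in each genotype (−0.54 and −0.53) but was not called (SE 0.384, adjusted p = 0.471). Its genotype gap, which enters that SE, differed between day 0 (10.61 and 11.27) and 3 hr Th0 culture (11.72 and 9.98).

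Some genes of resting T cells were higher in iTreg culture, to be read against 5.06% of all genes higher and 4.16% lower. Among 16 genes of naive or quiescent T cells 5 were higher and 2 lower, with a median of 0.13 (3 and 3 without the Erk2-deficient iTreg array, median −0.06). Klf2, a zinc finger factor that maintains quiescence and homing receptors, stood at 8.40 and 9.52 in Th1 culture and at 10.12 and 11.63 in iTreg culture (log2 difference 1.91, SE 0.249, adjusted p = 0.000133). Igfbp4 rose from 10.09 and 10.45 to 11.76 and 12.73 (log2 difference 1.97, SE 0.157, adjusted p = 7.64e-07), and Foxo1, a forkhead factor upstream of Klf2, from 8.34 and 8.70 to 9.58 and 9.63 (log2 difference 1.08, SE 0.128, adjusted p = 4.98e-05). Klf2, Igfbp4 and Foxo1 were called in all 20 alternatives. Tsc22d3 (GILZ) was higher by 1.51 and the transcription factor Lef1 by 0.51, while Dapl1 (−1.21) and the chromatin organizer Satb1 (−0.75) were lower. Ccr7 (−0.10), Il7r (0.10) and Btg1 (0.28) were not called.

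Cytokine, chemokine, adhesion and granule genes were called in both directions, to be read against 5.06% of all genes higher and 4.16% lower. Of 22 cytokine genes 2 were higher (Il24 and Lta) and 2 lower (Ifng and Il21), against 1 and 3 without the Erk2-deficient iTreg array. Il24, of the interleukin 10 family, was not above background in Th1 culture (6.15 and 6.29) and stood at 8.34 and 8.32 in iTreg culture, at least 4.09-fold higher (adjusted p = 2.82e-08). Of 15 chemokine and chemokine receptor genes 2 were higher (Ccr8 and Ccr6) and 2 lower (Ccl3 and Ccl4), or 2 and 4 without that array, and Ccl1 (0.60) and Cxcr4 (0.44) were not called. Of 13 integrin and adhesion genes 5 were higher and 2 lower (2 and 2 without the Erk2-deficient iTreg array): Itgae, Itgb2 (0.89), Selplg (0.69), Itgb7 (0.57), the partner chain of Itgae, and Itga6 (0.47) were higher, and Cd226 (−0.86) and Itgb1 (−0.61) lower. Of 9 cytotoxic granule and death ligand genes, Ctsw and Nkg7 were higher and Eomes lower (1 and 1 without that array), and Prf1 (−0.48) and Gzma (−0.02) were not called.

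The metabolic and biosynthetic genes that were called were lower in iTreg culture, to be read against 4.16% of all genes lower and 5.06% higher. Of 15 glycolysis genes, 6 were lower and 0 higher, with a median of −0.38 and every member between −0.57 and −0.04. The glucose transporter Slc2a1 stood at 10.78 and 10.54 in Th1 culture and at 10.23 and 9.99 in iTreg culture (log2 difference −0.55, SE 0.12, adjusted p = 0.00843), and the triose isomerase Tpi1 at 13.25 and 13.22 and then at 12.82 and 12.71 (log2 difference −0.47, SE 0.0859, adjusted p = 0.00214). The cultures did not overlap for either gene on these probes, and of the 3 Tpi1 probes 2 were called and 1 differed by less than 0.01. In the WT pair alone the glycolysis median was −0.24, against −0.009 over all genes. Without the Erk2-deficient iTreg array it was −0.25, against −0.013 over all genes. Fewer glycolysis genes were called in these smaller fits, and fewer of all genes were too. Of 15 ribosome biogenesis genes 3 were lower (Rrs1, Polr1c and Bop1) and 0 higher, with a median of −0.25, and without that array 1 was lower. Lss (−0.93) and Idi1 (−0.63) were lower among 12 cholesterol synthesis genes, and 0 were without it.

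Proliferation genes were called in numbers near those of all genes (5.06% higher and 4.16% lower). Of 19 DNA replication genes the thymidine kinase Tk1 alone was called, as lower (−0.48), the others lay between −0.17 and 0.16, and the median was 0.00. Of 14 mitosis genes Nusap1 was higher (0.34) and Ccna2 lower (−0.34), with the calls lost in 9 and 10 of 20 alternatives. Without the Erk2-deficient iTreg array 0 of either list were called by limma. In the Bcl2 family, 3 of 12 genes were lower and 0 higher: the survival gene Bcl2a1d (−0.99) and the death genes Bcl2l11 (Bim, −0.71) and Bid (−0.61). The count was 3 also without the Erk2-deficient iTreg array.

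The next comparison asked whether the culture difference depended on Erk2. All 1239 called probes had the same sign in the WT and the Erk2-deficient pair, as against 9052 of all 14501 probes, and sharing a sign helps a probe to be called. In 916 of the 1239 the difference was larger in the Erk2-deficient pair, with a median size of 0.44 in WT and 0.62 in Erk2-deficient cells on the log2 scale. Over all probes it was larger in the Erk2-deficient pair in 8971 of 14501, with medians of 0.11 and 0.16. The Erk2-deficient iTreg array that stands apart enters the second of these values, and its part was not tested. In the WT pair alone 410 probes were called and in the Erk2-deficient pair alone 1503.

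**Figure D3:**
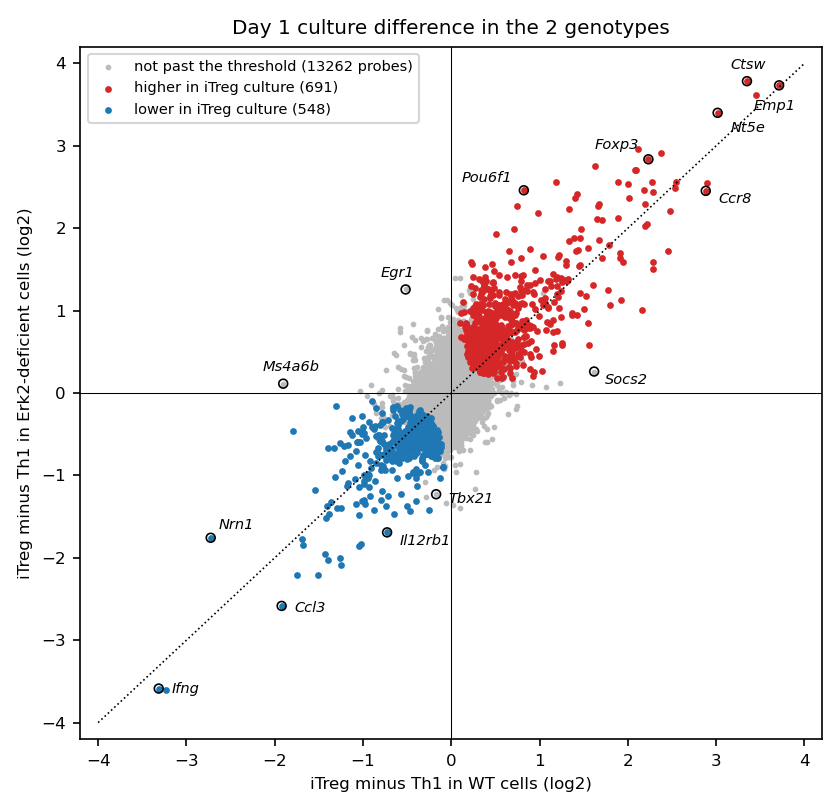
Difference between iTreg and Th1 culture (log2) in WT cells (horizontal axis) and in Erk2-deficient cells (vertical axis), 1 point a probe, with red for the 691 probes higher and blue for the 548 lower in iTreg culture past the threshold and a dotted line at equal differences. Emp1 and Ifng lie near the dotted line, Il12rb1 is farther from 0 in Erk2-deficient cells, and Ms4a6b, Egr1 and Socs2 lie well off it.

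A test of the difference between the genotypes called 243 of 14501 probes (1.68%), 171 with a higher value in Erk2-deficient cells (1.18%) and 72 with a lower one (0.497%). Without normalization between arrays 46 were higher and 91 lower. It has 3 residual degrees of freedom and 1 array for each value, so that an array that stands apart enters it in full. Fitting 1 genotype term before day 1 in place of 2 left 37 calls. In 106 of the 243 the sign differed between the genotypes, and the size was larger in Erk2-deficient cells in 204. Of 9800 genes 176 were called (1.8%), and in the Th1 list 4 of 17.

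Those 4 Th1 genes did not share a direction. Tbx21 differed by −0.17 in WT and −1.23 in Erk2-deficient cells (difference of differences −1.06, SE 0.18, adjusted p = 0.00153), and Il12rb1 by −0.73 and −1.69 (difference of differences −0.96, SE 0.18, adjusted p = 0.00344). For both, the fall was the deeper in Erk2-deficient cells. Stat4 differed by −1.31 in WT and −0.15 in Erk2-deficient cells (difference of differences 1.16, SE 0.199, adjusted p = 0.00155), and Il18r1 by −0.74 and 0.28 (difference of differences 1.02, SE 0.195, adjusted p = 0.00404), the reverse order. Ifng (−3.31 and −3.59) and Il12rb2 (−0.99 and −1.11) were not called. Foxp3 differed by 2.23 and 2.84, and that gap did not pass (adjusted p = 0.0899).

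The 4 genes with the highest values of this difference come first. Ms4a6b, a membrane protein of the CD20 family, stood at 9.03 and 8.89 in Th1 culture and at 7.12 and 9.01 in iTreg culture, low only on the WT iTreg array of these 4 (difference of differences 2.02, SE 0.206, adjusted p = 3.29e-06). Egr1, an immediate early factor induced by ERK signalling, stood at 11.85 and 9.42 and then at 11.33 and 10.68 (difference of differences 1.77, SE 0.207, adjusted p = 1.82e-05). Its Erk2-deficient level was below WT in both cultures, and the gap was the smaller in iTreg culture. The POU-domain factor Pou6f1 was above background on neither Th1 array (6.0 and 6.29) and stood at 6.82 and 8.75 in iTreg culture, at least 2.8-fold higher. The difference between genotypes passed for it (adjusted p = 1.28e-05), but its size is not given, since the Th1 levels are bounds. Tsc22d3, induced by glucocorticoids and FoxO factors, stood at 7.50 and 8.02 and then at 8.24 and 10.29 (difference of differences 1.53, SE 0.227, adjusted p = 0.000344), and its other probe also passed (0.79). Of the day 1 iTreg and Th1 arrays, the Erk2-deficient iTreg array held the highest level of Pou6f1 and of Tsc22d3. At day 0 Tsc22d3 stood higher, at 13.29 and 13.25.

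The 4 genes with the lowest values were Hba-a1, Chd4, Zbtb7a and Socs2. Socs2, a STAT5-induced inhibitor, stood at 11.10 and 11.96 in Th1 culture and at 12.72 and 12.22 in iTreg culture (difference of differences −1.36, SE 0.212, adjusted p = 0.000563), a rise seen mainly in WT cells. Zbtb7a, a zinc finger repressor, stood at 8.38 and 8.33 and then at 8.41 and 6.97 (difference of differences −1.39, SE 0.178, adjusted p = 7.75e-05), and Chd4, a remodelling ATPase of the NuRD complex, at 8.71 and 8.84 and then at 8.97 and 7.68 (difference of differences −1.42, SE 0.184, adjusted p = 7.75e-05). Both were low on the Erk2-deficient iTreg array, and the other 2 Chd4 probes differed by −0.09 and 0.16 without a call. The haemoglobin gene Hba-a1, a red cell marker, stood at 8.26 and 7.75 and then at 8.37 and 6.35 (difference of differences −1.50, SE 0.2, adjusted p = 0.000104). In Erk2-deficient cells it stood at 6.22 in day 1 Th0 culture, and at 6.45 and 6.44 with 1 hr and 3 hr of TGF. Among the Erk2-deficient day 1 arrays, that of Th1 culture was thus the one apart for Hba-a1. The red cell marker Alas2 was never above background on the 4 iTreg and Th1 arrays. The summed intensity of these red cell markers was 360 and 279 in Th1 culture and 394 and 138 in iTreg culture, and its part in the result was not tested.

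**Figure D4:**
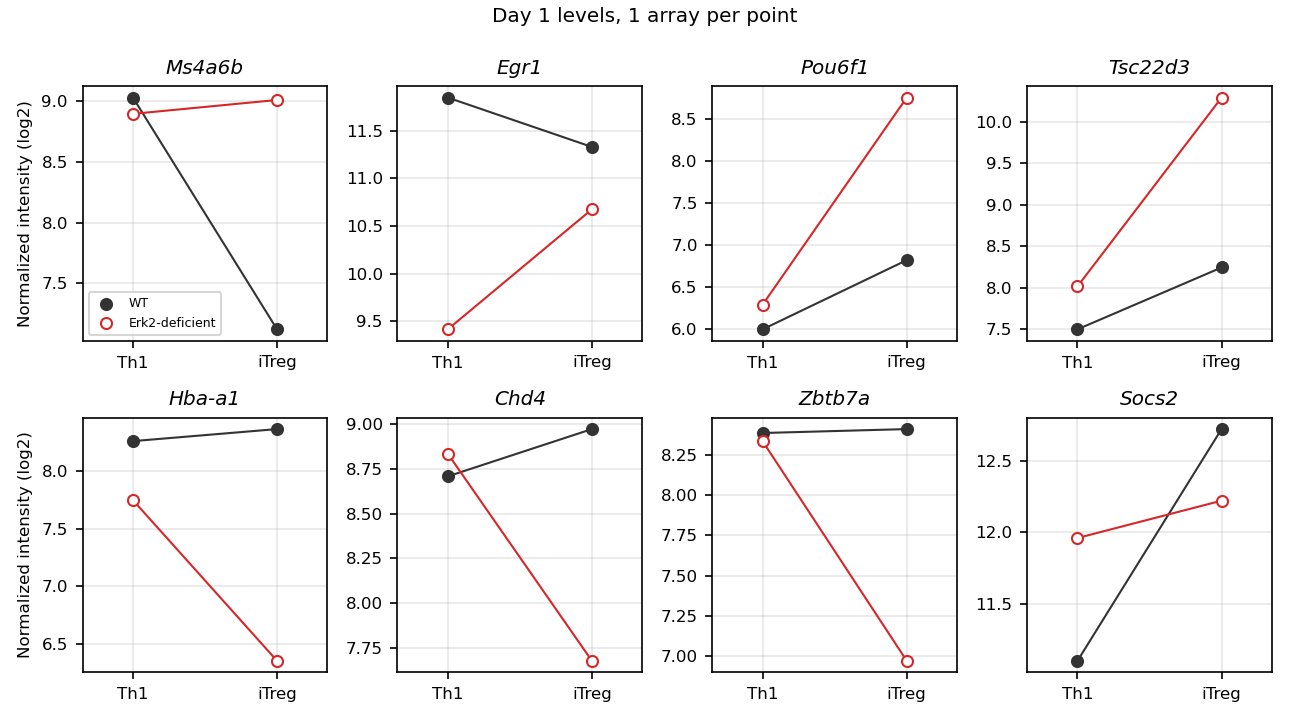
Log2 normalized intensity (vertical axis, a separate range in each panel) on the 4 day 1 arrays for the 8 genes with the largest difference between genotypes, with black filled circles for WT and red open circles for Erk2-deficient cells and a line joining the cultures of a genotype. Each point is 1 array with no error bar. Lines that are not parallel mark the difference, which ran from 2.02 for Ms4a6b down to −1.50 for Hba-a1.

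The levels of day 1 Th0 culture, with and without TGF, were set beside the 2 cultures. Th0 culture without TGF lay on the other chip, so that chip and culture cannot be told apart for it. Of the 12 largest rises, which were chosen for the difference between iTreg and Th1 culture, the Th0 mean was closer to Th1 in 11. That of Th0 cells with 1 hr of TGF was closer to Th1 in 9, and that with 3 hr of TGF in 5. Of the 12 largest falls the corresponding counts were 8, 8 and 6. Over all called probes the mean with 3 hr of TGF was closer to Th1 in 405 of 691 that were higher and in 331 of 548 that were lower. Foxp3 stood at 7.09 and 7.63 in Th0 culture and at 7.13 and 7.58 after 3 hr of TGF, both near its Th1 level. Nt5e stood at 7.37 and 7.31 in Th0 culture, at 8.44 and 8.65 after 1 hr of TGF and at 9.12 and 9.18 after 3 hr, between its Th1 and iTreg levels. Tgfbr1 stood at 10.30 and 10.27, 11.49 and 11.29 and 11.47 and 11.44 in the same order, also between its Th1 and iTreg levels. Ifng stood at 9.0 and 9.09 in Th0 culture and at 8.33 and 8.28 after 3 hr of TGF, far below its Th1 level and above its iTreg level. Tbx21 stood at 10.18 and 9.85 and 10.22 and 9.95, near its Th1 level. In Th0 culture without TGF, Gbp5 stood at 10.25 and 10.35, near its Th1 level. Ifitm3 stood there at 8.41 and 8.24, between its Th1 and iTreg levels.

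**Figure D5:**
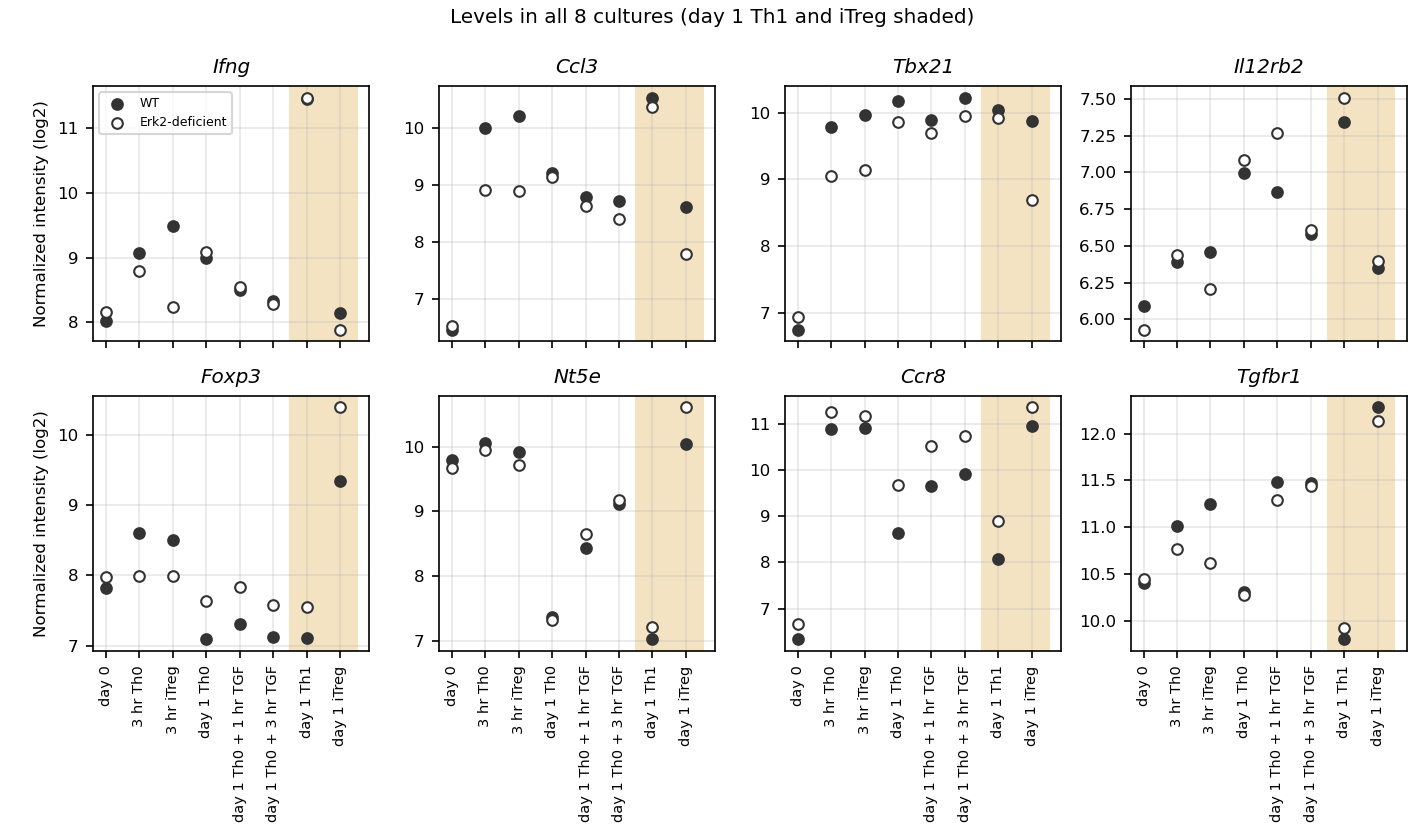
Log2 normalized intensity (vertical axis, a separate range in each panel) of 8 genes in all 8 cultures, 1 point an array, filled for WT and open for Erk2-deficient cells, with the day 1 Th1 and iTreg cultures shaded. Ifng and Ccl3 are highest in day 1 Th1 culture, Foxp3 and Tgfbr1 are highest in day 1 iTreg culture, and Nt5e lies above its day 1 Th1 level at day 0 and 3 hr also.

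iTreg culture at 3 hr, on the other chip, served as an earlier reference. Between iTreg and Th0 culture at 3 hr limma called 0 of 14501 probes (0%), with 527 at an unadjusted p under 0.05. Of the 1239 probes called at day 1, 466 (37.6%) had the same sign at 3 hr, against 6373 (43.9%) of all probes. Foxp3 stood at 8.60 and 8.0 in 3 hr Th0 culture and at 8.51 and 7.99 in 3 hr iTreg culture, a difference of −0.05. Nt5e differed by −0.19, Tgfbr1 by 0.04 and Ifng by −0.06 at that time.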

How the data were processed

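CD4 T cells were profiled on 16 Illumina bead arrays, 1 for each of 8 cultures and 2 genotypes. The deposited non-normalized table holds probe intensity on a linear scale, and the deposited series matrix holds intensity that the authors normalized, how is not stated in the sources used here. Neither gives detection p-values. Intensities were background-corrected (normexp, offset 50), quantile normalized and put on the log2 scale with limma 3.58.1 in R 4.3.3. Probes above background (99th percentile of a normal fitted around each array's mode) on at least 2 arrays were kept, 14501 of 25697, for 9800 genes. The platform annotation names a single gene for 23978 of all probes.

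All 16 arrays were fitted together (lmFit, eBayes) with culture and genotype as terms, the genotype serving as the block that pairs the arrays. A second fit with separate genotype terms for the day 1 iTreg and Th1 pairs tested the difference between genotypes. The threshold was an adjusted p of 0.05 (Benjamini-Hochberg over all kept probes). Named genes are the 12 largest rises and 12 largest falls with 1 direction in both genotypes, up to 6 members of each of 22 gene lists, Foxp3, Tbx21, Ifng, Gata3, Il12rb2 and Itgae, and the 4 largest differences between genotypes each way. Others were named after their values were seen, and some items are not reported here. The genes, lists and tests were chosen with earlier results of these data known. A difference from a group never above background is given as a bound against the lowest signal above background on its arrays. The fits were tested on simulated data. Alternatives were other background corrections, normalizations, filters, priors and array weights, the series matrix values, subsets of the arrays, other blocks, and each array left out. The number of arrays limits the precision.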

Additional observations from a re-analysis of the deposited data

Results flagged for a closer look

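In 30 of the genes named by rule or held in a list, the test of the difference itself (limma, adjusted p under 0.05) found that the culture difference was not the same in the 2 genotypes. Over all genes 176 of 9800 (1.8%) passed. The 4 largest differences each way were named because they passed this test, so the count of 30 is no measure of enrichment. Values are the log2 difference between iTreg and Th1 culture in Erk2-deficient cells minus that in WT cells, with 1 array behind each of the 4 levels. The value was above 0 for Ms4a6b (2.02), Egr1 (1.77), Tsc22d3 (1.53), the interleukin 7 receptor gene Il7r (1.37), the interferon-induced gene Ifit3 (1.28), Stat4 (1.16), Il3 (1.06), Ecm1 (1.05), Il18r1 (1.02) and Fos (1.01). It was also above 0 for Nrn1 (0.97), Socs3 (0.96), Tnfrsf9 (0.94), Nrp1 (0.85), the chemokine receptor Cxcr4 (0.85), Endod1 (0.85) and Klf3 (0.82). The value was below 0 for Hba-a1 (−1.50), Chd4 (−1.42), Zbtb7a (−1.39), Socs2 (−1.36), Ccr6 (−1.16), Tbx21 (−1.06), Il12rb1 (−0.96) and the mitotic kinesin Kif11 (−0.90). It was also below 0 for the cholesterol synthesis enzyme Lss (−0.87), the hexokinase Hk2 (−0.85), the receptor Btla (−0.81), Tnfsf14 (−0.78) and Chst2 (−0.69). Ifit3 passed on all 3 of its probes and Tnfrsf9 on both, Ccr6 and Il12rb1 on 1 of 2 probes each, and Chd4 on 1 of 3. Pou6f1 passed the test too, but both Th1 levels were below background, so no size is given. The Erk2-deficient iTreg array, which stands apart from the other day 1 arrays, is 1 of the 4 behind every value, and its part was not tested.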

How the results depend on the processing

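The count of 1239 probes was 757 with no replicate block (no genotype term), 410 in the WT pair alone, and 503 to 2294 with 1 array left out; the other alternatives gave 938 to 1724. The WT pair alone, the Erk2-deficient pair alone and the fit without day 0 were chosen after seeing the data. Without normalization 951 of the 1239 probes were called again. The genotype block pairs the arrays of a genotype by label, with 1 array for each combination, and the cause of its effect on the count was not tested. Of 89 named results called at day 1, 53 stayed past the threshold in all alternatives run, 36 lost it in at least 1, and 0 changed direction. Calls lost without the Erk2-deficient iTreg array were those of Smurf1, Smad4, Irf8, Ifit3, Isg15, Irf9, Gata3, Lta, Tnfrsf9, Cd69, Tsc22d3, Nkg7, Selplg, Itgb7, Tk1, Ccna2, Nusap1, Pfkl, Slc2a1, Pdk1, Pfkp, Pkm, Lss, Idi1, Polr1c and Bop1. Without 1 or the other Th1 array most of these and also Smad6, Ptprk, Pim2, Bcl2l11 and 1 Gbp2 probe were lost, and without the WT iTreg array Irf8, Lta, Pfkp, Bop1 and Bcl2l11. Tbx21, not called, passed in 7. The 243 calls between genotypes were 137 without normalization (46 higher and 91 lower, with the median of all probes at −0.14 against −0.01) and 37 with 1 genotype term before day 1, which assumes the same genotype difference at day 0 and 3 hr; the others gave 231 to 284. The 3 hr comparison gave 0 to 1 calls with 1 array left out, the 1 without the WT iTreg array, and 0 in the other alternatives. Not every kept probe was called for Bcl2l11, Bid, Cd226, Ifit3, Irf9, Itgae, Nusap1, Pfkl, Pfkp, Tgfbr2, Tk1, Tnfrsf9, Tpi1 and Tsc22d3. A bound is given only where a culture was above background on neither of its arrays. Other probes near background are given as plain differences.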
